A study of Mus musculus with 4 samples.

Results

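The genes described here are 49 receptors, and receptor partners, through which a lymphocyte can sense metabolites, prostanoids, leukotrienes, histamine, nucleotides, neuropeptides and neurotrophic factors. They were taken by gene symbol from a table of 53379 genes and grouped by the ligand each receptor is known for. Expression had been measured by RNA-seq in group 3 innate lymphoid cells (ILC3s) of the mouse small intestinal lamina propria, as 2 libraries of Brg1-sufficient cells and 2 of Brg1-deficient cells. Brg1, the product of Smarca4, is an ATPase of the BAF complex, which remodels chromatin. Bone marrow of Rag1-/-Smarca4f/f donors, carrying Thy1.2, and of Rag1-/- donors whose ILC3s lack Brg1, carrying Thy1.1 and Thy1.2, was mixed and given to irradiated Rag2-/-Il2rg-/- hosts. After 6 to 7 weeks, the Thy1.2high CD45low cells were sorted, and Thy1.1 separated the Brg1-deficient cells (Thy1.1+) from the Brg1-sufficient cells (Thy1.1-). Cells of both groups thus lacked Rag1 and shared their environment, while the groups differed in their Thy1 alleles as well as in Smarca4. The hosts themselves lack T, B and innate lymphoid cells, and neither the sort nor the labels separated NKp46+ from NKp46- ILC3s. The ages of the donors and hosts were not given in the sources used here.

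Most of these receptors are G protein-coupled. Receptors that couple to Gs raise cyclic AMP, those that couple to Gi lower it, and those that couple to Gq raise calcium. In the gut, oxysterols draw ILC3s to lymphoid structures, short-chain fatty acids and tryptophan metabolites come from diet and microbes, and prostaglandin E2, adenosine, vasoactive intestinal peptide and calcitonin gene-related peptide (CGRP) come from tissue, immune and nerve cells.

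Smarca4 itself stood at 17.07 and 16.73 in Brg1-sufficient ILC3s, in FPKM (fragments mapped, per length of transcript and size of library), and at 9.98 and 9.03 in Brg1-deficient ILC3s. It had a log2 fold change of -0.77 (standard error 0.164) and did not pass the test (limma, adjusted p = 0.153 by Benjamini-Hochberg). Gene totals do not separate transcripts of the recombined allele from those of the intact one. Il7r, a gene that defines innate lymphoid cells, was at 432.95 FPKM or more in all 4 libraries. The summed FPKM of 10 ILC2 markers was 206.68 to 378.49 in the Brg1-sufficient and 95.55 to 121.15 in the Brg1-deficient libraries. Gata3 made up 183.23 and 110 FPKM of the former sums and 74.52 and 105.2 FPKM of the latter. All 10 markers had a lower mean in the Brg1-deficient libraries. By the looser limits defined below, 7.08% of all 9095 genes above 5 FPKM were lower and 6.25% higher. Of the 7 ILC2 markers above 5 FPKM, 6 were lower. The first Brg1-sufficient library stood apart in this list, with Ccr8 at 51.74 FPKM, against 8.41 in the second and 0.23 and 0.24 in the Brg1-deficient libraries. Of 9 markers of NKp46+ ILC3s, ILC1s and NK cells, 7 were above 5 FPKM, with 4 lower and 1 higher by the looser limits. Ncr1 (31.32 and 35.54 against 5.37 and 6.02 FPKM) and Ifng (22.75 and 37.28 against 3.42 and 3.22 FPKM) fell, with adjusted p of 0.033 and 0.0386 from limma. T cell markers summed to 59.78 to 134.9 FPKM in the Brg1-sufficient and 34.92 to 45.36 in the Brg1-deficient libraries, and macrophage and monocyte markers were highest in the second library of each group (326.82 and 293.9 FPKM, against 146.81 and 110.19). The B and plasma cell list summed to 9.94 to 10.88 against 1.7 to 2.89 FPKM, with Cd79b at 8.68 and 10.02 against 1.03 and 0.99 FPKM, while Pax5 and Ms4a1 stayed at 0.32 or below. The dendritic cell list summed to 37.56 to 45.47 against 11.47 to 16.93 FPKM, mostly Zbtb46, with Siglech at 0.38 or below. The lists for neutrophils, mast cells and basophils, eosinophils, epithelial cells, fibroblasts, and enteric neurons and glia summed to at most 11.82 FPKM in any library, and the endothelial list of 5 genes summed to 63.79 to 89.62 FPKM, nearly all of it Pecam1. Rag1-/- mice lack T and B cells, and the hosts lack them too. The T cell and the B and plasma cell lists are therefore given as gene lists and not as a measure of such cells. For the other types, fewer cells and less RNA per cell cannot be told apart in such bulk samples. The part of these markers in the results below was not tested.

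**Figure D1:**
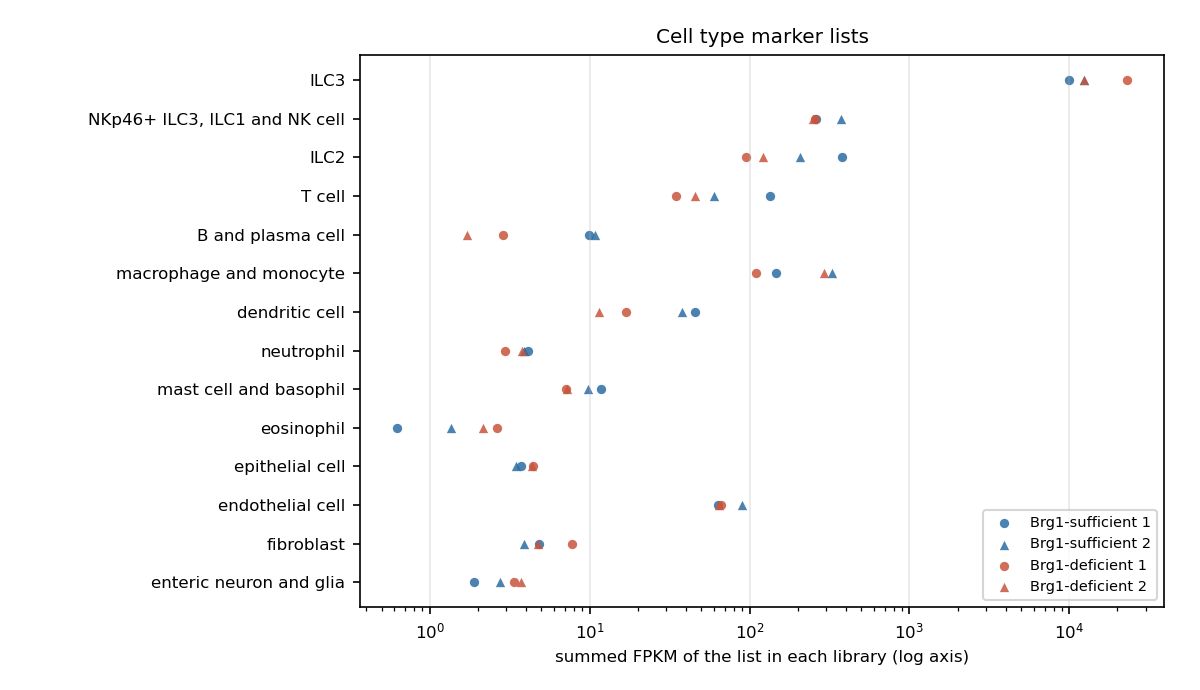
Summed FPKM (log axis) of each cell type marker list in the 4 libraries, with blue for Brg1-sufficient, red for Brg1-deficient, circles for the first and triangles for the second library of a group. The ILC2 list lies at 206.68 and above in both Brg1-sufficient libraries and at 121.15 and below in both Brg1-deficient libraries, and the macrophage and monocyte list is higher in the triangles of both groups.

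Of the 49 receptor genes, 29 had a mean above 1 FPKM in at least one group and were tested, and 20 did not. The test was limma on log2(FPKM + 1) over all 14739 genes above that level. At an adjusted p under 0.05, 1 of the 29 was lower in Brg1-deficient ILC3s (Ramp1), where 0.224% of all genes tested were, and 0 were higher, where 0.0814% of all were. At an unadjusted p under 0.05, 7 were lower, where 6.47% of all genes tested were, and 5 were higher, where 6.12% were. These same 12 genes passed a set of looser limits, taken from the criteria the study used for its gene list: an unadjusted p under 0.05, an adjusted p under 0.4, a mean above 5 FPKM in either group and a log2 ratio of the means beyond 0.5. Of the 23 receptor genes above 5 FPKM, 7 (30.4%) were lower by these limits, where 7.08% of all 9095 genes above 5 FPKM were. A further 5 of the 23 (21.7%) were higher, where 6.25% of all were. These shares are a description, since the receptor genes had been chosen with results of the same libraries known. Both Brg1-deficient libraries lay below both Brg1-sufficient libraries in 9 of the 29 genes (31.0%) and above them in 7 (24.1%), where 20.2% and 24.4% of all genes tested did so. The median log2 fold change was 0.01 over the 29 and 0.03 over all genes tested. With 2 libraries against 2, the smallest two-sided p of an exact permutation test is 0.33, so the calls rest on the variance that limma pools over genes. They rest on all 4 libraries too. When any 1 library was left out, 0 of the 49 were called. When the first Brg1-deficient library was left out, or the second, 1 receptor gene (Ramp1) passed the looser limits.

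In level, which FPKM allows to be compared between genes, Cysltr2, Gpr132 and Gpr183 stood first, with means over the 4 libraries of 206.65, 188.6 and 183.09 FPKM. Their ranges overlapped, and no library of any of them was below 131.93 FPKM, above the highest library of the next gene, Gpr171 (100.98 FPKM). Gpr171, Ffar2 and P2ry10 followed with means of 91.71, 90.76 and 82.3 FPKM, also with overlapping ranges. From Ptger2 (48.76 FPKM) down to P2ry6 (0.895 FPKM), each gene's range over the libraries overlapped that of the next. In total, 26 of 28 neighbouring pairs in this order overlapped. The 49 genes together summed to 1135.82 and 1145.4 FPKM in the Brg1-sufficient and 1246.09 and 1161.77 FPKM in the Brg1-deficient libraries.

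**Figure D2:**
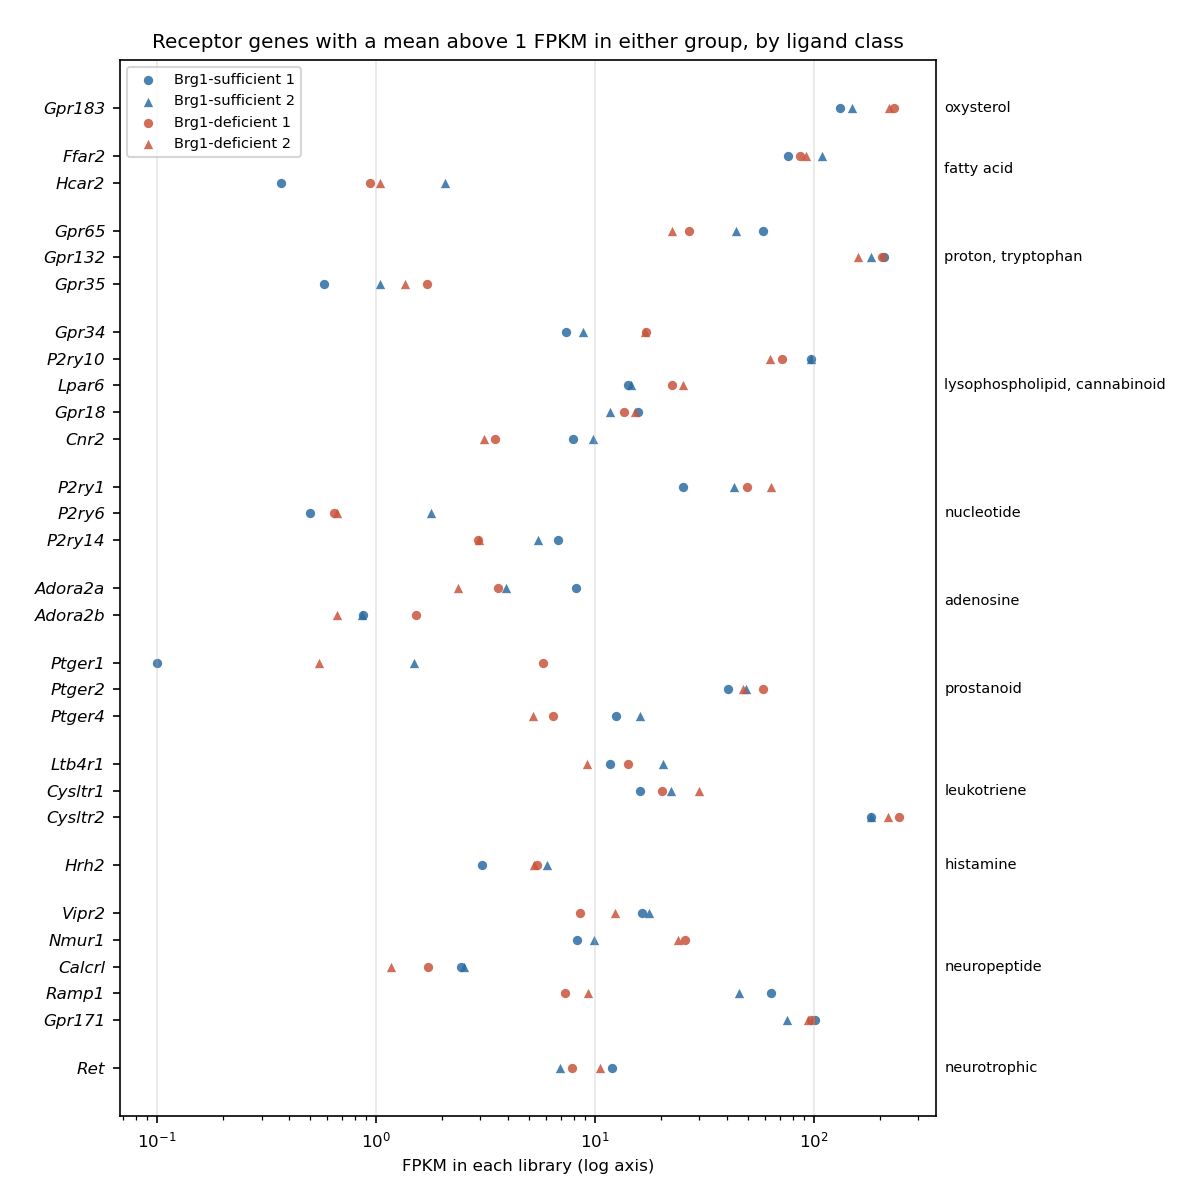
FPKM (log axis) of the 29 receptor genes above 1 FPKM, by ligand class, with 1 point per library, blue for Brg1-sufficient and red for Brg1-deficient, circles for the first and triangles for the second library of a group. The points of Ramp1 lie at 45.64 and 64.01 in the Brg1-sufficient and at 7.26 and 9.3 in the Brg1-deficient libraries, while those of Ffar2, Gpr132 and Gpr171 intermingle.

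**Figure D3:**
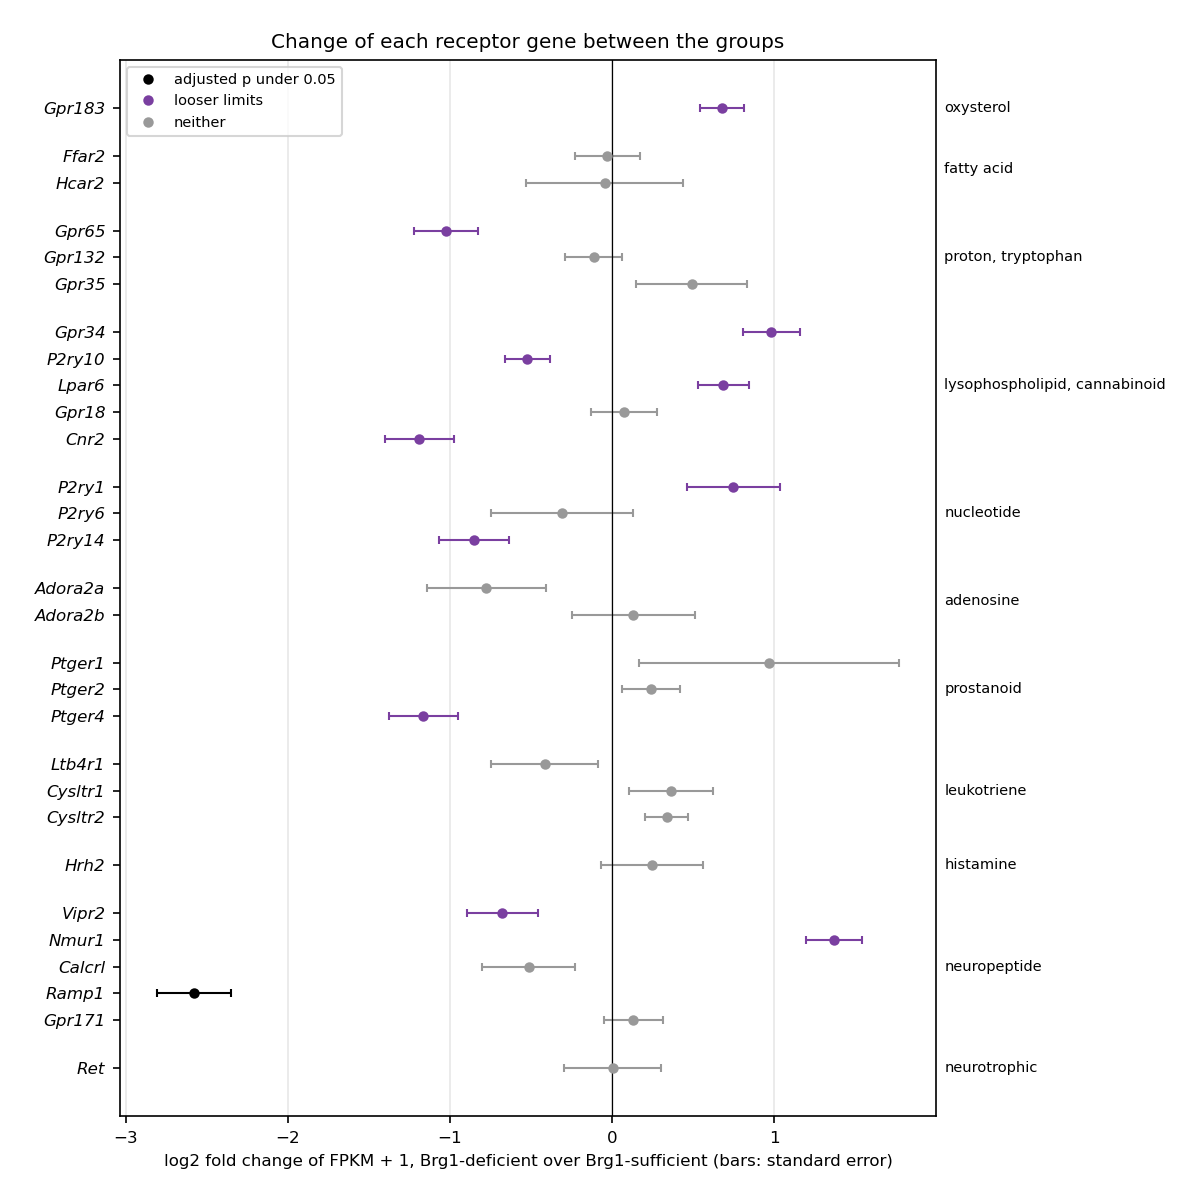
Log2 fold change of FPKM + 1, Brg1-deficient over Brg1-sufficient, for the same 29 genes by ligand class, with bars of 1 standard error. Ramp1 at -2.58 is the gene at an adjusted p under 0.05, the other 11 genes past the looser limits are split between 6 below and 5 above 0, and several classes hold genes on both sides.

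Gene positions are those of GENCODE M21 on GRCm38. Among the neuropeptide receptors, Ramp1 (chr1:91179822-91225196, plus strand), the partner protein that turns the calcitonin receptor-like receptor into the CGRP receptor, measured 64.01 and 45.64 FPKM in Brg1-sufficient and 7.26 and 9.3 FPKM in Brg1-deficient ILC3s. The groups did not overlap, and the mean was 15.1% of control in Brg1-deficient ILC3s. Ramp1 fell by 2.58 on the log2 scale (standard error 0.228, limma, adjusted p = 0.0386 by Benjamini-Hochberg). Without the first Brg1-sufficient library, which had the most ILC2 marker RNA, its log2 fold change was -2.34. The second Brg1-sufficient library also had more ILC2 marker RNA than the Brg1-deficient libraries, at 206.68 against 95.55 and 121.15 FPKM. Gata3 made up 110 FPKM of the former sum and 74.52 and 105.2 FPKM of the latter. Other markers differed more, with Il17rb at 9.96 against 1.55 and 1.29 FPKM and Klrg1 at 11.04 against 1.64 and 2.19 FPKM. The part of ILC2s in the fall of Ramp1 was therefore not tested by leaving a library out. Calcrl, the receptor chain that Ramp1 joins, was low, at 2.44 and 2.51 against 1.73 and 1.17 FPKM (log2 fold change -0.51, standard error 0.286, limma adjusted p = 0.533).

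Nmur1 (chr1:86386303-86426228, minus strand), the receptor for neuromedin U, had the largest positive log2 fold change of the 12 genes past the looser limits. It stood at 8.24 and 9.88 FPKM in Brg1-sufficient and 25.88 and 24.04 FPKM in Brg1-deficient ILC3s. The groups lay well apart, at a ratio of means of 2.75 and a log2 fold change of 1.37 (standard error 0.173), which passed the looser limits (limma adjusted p = 0.0675). Tested over the 9095 genes above 5 FPKM alone, its adjusted p from limma was 0.0325. Nmur1 is known as a receptor of ILC2s. ILC2 marker RNA was lower in the Brg1-deficient libraries, and whether it relates to the level of Nmur1 was not tested. Vipr2 (chr12:116077726-116146261, plus strand), a Gs-coupled receptor for vasoactive intestinal peptide, was lower by the looser limits, at 16.42 and 17.68 against 8.51 and 12.38 FPKM (log2 fold change -0.68, standard error 0.22, limma adjusted p = 0.31). It did not pass those limits without either Brg1-sufficient library. Vipr1, the other receptor for this peptide, was listed at 0.1 to 0.24 FPKM. Gpr171, a receptor for a neuropeptide of the proSAAS precursor, was high and overlapped between the groups, at 100.98 and 74.97 against 97.22 and 93.67 FPKM, with a 95% interval of -0.33 to 0.59 for its log2 fold change.

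Prostanoid receptors were split by subtype. Ptger4 (chr15:5206661-5244187, minus strand), the Gs-coupled EP4 receptor for prostaglandin E2, measured 12.54 and 16.03 FPKM in Brg1-sufficient and 6.41 and 5.21 FPKM in Brg1-deficient ILC3s. Its mean without Brg1 was 40.7% of that in controls, and its log2 fold change of -1.16 (standard error 0.211) passed the looser limits (limma adjusted p = 0.113). Ptger2, the EP2 receptor, which binds the same ligand and also couples to Gs, was the more abundant of the pair and overlapped between the groups, at 40.38 and 48.8 against 58.27 and 47.59 FPKM. The 95% interval of its log2 fold change, -0.21 to 0.69, does not reach the value of Ptger4, but the difference between these genes was not tested. Ptger1, the EP1 receptor, was scattered, at 0.1 and 1.49 against 5.78 and 0.55 FPKM. Its values are uncertain, and no order was read from them. Ptgir, the prostacyclin receptor, measured 1.12 and 0.84 FPKM in the controls and was listed at 0 in both Brg1-deficient libraries. The remaining prostanoid receptors, Ptger3, Ptgdr and Ptgdr2, the latter pair for prostaglandin D2, were at 0.58 FPKM or below in every library.

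For the adenosine receptors that couple to Gs, Adora2a was at 8.17 and 3.92 against 3.59 and 2.36 FPKM, without overlap but with a wide spread in the Brg1-sufficient group (log2 fold change -0.77, standard error 0.369, limma adjusted p = 0.475). Adora2b was at 0.87 and 0.86 against 1.52 and 0.66 FPKM. Adora1 and Adora3 were at 0.6 FPKM or below in every library. Hrh2, the Gs-coupled histamine receptor, overlapped between the groups at 3.04 and 6.06 against 5.42 and 5.26 FPKM, and Hrh1 and Hrh4 were at 0.63 FPKM or below.

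The proton-sensing receptor Gpr65 (chr12:98268635-98276644, plus strand), which couples to Gs, measured 58.76 and 44.28 FPKM in Brg1-sufficient and 26.91 and 22.46 FPKM in Brg1-deficient ILC3s. Both groups lay apart, with a Brg1-deficient mean at 47.9% of the other and a log2 fold change of -1.02 (standard error 0.199, limma adjusted p = 0.13), past the looser limits. Gpr132, a receptor for oxidised fatty acids that is grouped with the proton sensors, was much higher in level and overlapped, at 207.97 and 182.91 against 204.32 and 159.21 FPKM (95% interval of its log2 fold change -0.55 to 0.33). Gpr35, a receptor for the tryptophan metabolite kynurenic acid, was near the limit of the test at 0.58 and 1.04 against 1.71 and 1.35 FPKM (limma adjusted p = 0.613).

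Of 7 genes above 5 FPKM taken as signalling through Gs, 4 were lower by the looser limits: Ramp1, Ptger4, Gpr65 and Vipr2. Ptger2, Adora2a and Hrh2 passed them in neither direction. Of all 9095 genes above 5 FPKM, 7.08% were lower. This grouping was chosen after the values were seen and was not tested. Ramp1, Ptger4, Gpr65 and Vipr2 are also the genes past the looser limits that have a single RefSeq promoter entry (GRCm38.p6) whose start is that of a GENCODE transcript. The 250 bases before each start are shown, 5′ to 3′, so that their upstream sequences can be compared. RefSeq promoter entries were matched by symbol for 38 of the 49 receptor genes. The letters searched, on both strands and with overlapping matches kept, were TGACGTCA (the cyclic AMP response element), AGGTCA (an element that nuclear receptors bind), GGTGTGA (T-box factors), TGTGGT (RUNX factors) and GGGCGG (the GC box). Capitals mark the matches.
Ramp1, chr1:91179572-91179821, plus strand: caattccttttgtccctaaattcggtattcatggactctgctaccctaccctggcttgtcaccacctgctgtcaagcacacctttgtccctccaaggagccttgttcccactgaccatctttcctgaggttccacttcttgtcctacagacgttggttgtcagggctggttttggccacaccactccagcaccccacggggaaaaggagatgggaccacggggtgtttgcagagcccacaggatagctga
Ptger4, chr15:5244188-5244437, minus strand: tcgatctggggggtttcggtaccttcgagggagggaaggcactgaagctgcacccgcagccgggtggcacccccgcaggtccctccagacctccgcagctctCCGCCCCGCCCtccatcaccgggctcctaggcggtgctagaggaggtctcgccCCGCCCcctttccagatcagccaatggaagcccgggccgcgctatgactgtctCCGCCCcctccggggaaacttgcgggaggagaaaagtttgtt
Gpr65, chr12:98268385-98268634, plus strand: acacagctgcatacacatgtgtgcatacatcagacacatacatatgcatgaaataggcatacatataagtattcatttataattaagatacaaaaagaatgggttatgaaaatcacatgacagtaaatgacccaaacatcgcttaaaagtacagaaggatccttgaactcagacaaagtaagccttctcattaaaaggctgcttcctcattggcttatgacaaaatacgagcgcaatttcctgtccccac
Vipr2, chr12:116077476-116077725, plus strand: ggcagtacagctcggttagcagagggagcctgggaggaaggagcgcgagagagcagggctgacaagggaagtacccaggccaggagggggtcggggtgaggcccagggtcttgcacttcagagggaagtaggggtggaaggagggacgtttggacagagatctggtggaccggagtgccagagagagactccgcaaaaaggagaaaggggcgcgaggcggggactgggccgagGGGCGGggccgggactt
The GC box occurred 4 times before Ptger4 and 1 time before Vipr2, and none of the other letters occurred in these 4 windows. Among all 11 genes past the looser limits with a promoter entry, 3 held the GC box (P2ry1, Ptger4 and Vipr2). In the same 11, 2 held AGGTCA (P2ry10 and P2ry14), 1 held TGTGGT (P2ry10), and 0 held GGTGTGA or TGACGTCA. Of all 32851 promoter entries, 32.7% held the GC box within the same 250 bases, 14% AGGTCA, 14% TGTGGT, 3.33% GGTGTGA and 1.55% TGACGTCA. The base composition of the windows was unlike, with G or C at 54.0%, 66.8%, 36.8% and 65.2% of the bases before Ramp1, Ptger4, Gpr65 and Vipr2. A match is a description of the letters and not a binding site.

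Gpr183 (chr14:121952551-121965195, minus strand), the only oxysterol receptor among the 49, was the most abundant gene past the looser limits. It stood at 131.93 and 149.47 FPKM in Brg1-sufficient and 230.99 and 219.97 FPKM in Brg1-deficient ILC3s. The groups did not overlap, and the log2 fold change of 0.68 (standard error 0.137, limma adjusted p = 0.142) corresponded to a ratio of means of 1.6. Gpr183 and Gpr18 lie within Ubac2, on the other strand, without sharing exon bases with it, and Ubac2 was at 42.37 to 46.42 FPKM in all libraries.

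Receptors for lysophospholipids and cannabinoids were divided within the class. Of the 5 tested, 2 were lower and 2 higher by the looser limits, where 7.08% and 6.25% of all 9095 genes above 5 FPKM were. Gpr34 (chrX:13632089-13640858, plus strand), a receptor for lysophosphatidylserine, was higher, at 7.4 and 8.86 against 17.06 and 16.92 FPKM (log2 fold change 0.98, standard error 0.175, limma adjusted p = 0.112). P2ry10 (chrX:107088492-107104974, plus strand), which binds the same lipid, was lower, at 97.48 and 96.73 against 71.74 and 63.26 FPKM (log2 fold change -0.52, standard error 0.139, limma adjusted p = 0.23). Gpr174, the remaining lysophosphatidylserine receptor, was at 0.46 FPKM or below. These 3 receptors for a single ligand thus lay on either side of 0 or were nearly absent.

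Cnr2 (chr4:135895394-135920207, plus strand), the Gi-coupled cannabinoid receptor of immune cells, measured 7.92 and 9.75 FPKM in Brg1-sufficient and 3.5 and 3.11 FPKM in Brg1-deficient ILC3s. Its mean without Brg1 was 37.4% of that in controls, and its log2 fold change was -1.19 (standard error 0.211, limma adjusted p = 0.111). Lpar6 (chr14:73237895-73243294, plus strand), a receptor for lysophosphatidic acid, was higher, at 14.16 and 14.59 against 22.37 and 25.2 FPKM (log2 fold change 0.69, standard error 0.158, limma adjusted p = 0.18). It lies within Rb1 on the other strand and shares 7.56% of its exon bases with it, and Rb1 was at 33.9 and 34.94 against 51.76 and 51.17 FPKM. The deposited values are not stated to use strand, so reads of the shared bases cannot be assigned to one gene. Gpr18, whose ligand is debated, overlapped between the groups at 15.7 and 11.68 against 13.52 and 15.19 FPKM, and Gpr55 was at 0.6 FPKM or below.

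Of the nucleotide receptors, P2ry1 (chr3:61002795-61008982, plus strand), which binds ADP, was higher by the looser limits, at 25.19 and 43.19 against 49.57 and 63.67 FPKM (log2 fold change 0.75, standard error 0.287, limma adjusted p = 0.381). The Brg1-sufficient libraries differed widely from each other, and P2ry1 lost those limits without the first of them. It shares 23.1% of its exon bases with Gm37035 on the other strand, which was at 0.74 to 3.8 FPKM. P2ry14 (chr3:59113855-59153618, minus strand), a receptor for UDP-sugars, was lower, at 6.75 and 5.5 against 2.92 and 2.95 FPKM (log2 fold change -0.85, standard error 0.218, limma adjusted p = 0.219). P2ry6, for UDP, was at 0.5 and 1.78 against 0.64 and 0.66 FPKM, and P2ry2, P2ry12 and P2ry13, for ATP, UTP or ADP, were at 1.07 FPKM or below. P2ry12, P2ry13, P2ry14 and Gpr171 all lie within Med12l on the other strand, which was at 0.96 to 1.71 FPKM, and P2ry14 and Gpr171 share no exon base with it.

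Fatty acid receptors were represented by Ffar2, a receptor for acetate and propionate, at 76.17 and 108.48 against 86.54 and 91.83 FPKM. The Brg1-deficient libraries lay between the Brg1-sufficient ones, with a 95% interval of -0.53 to 0.48 for the log2 fold change. Hcar2, which binds butyrate and niacin, was at 0.37 and 2.07 against 0.94 and 1.04 FPKM, and Ffar1, Ffar3, Ffar4 and Gpr84 were at 0.63 FPKM or below in every library.

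The leukotriene receptors were all expressed, and none passed either set of limits. Cysltr2, a receptor for cysteinyl leukotrienes and the most abundant of the 49 genes by mean, was at 182.91 and 181.74 against 244.5 and 217.46 FPKM, without overlap. Its log2 fold change of 0.34 (standard error 0.134) had an adjusted p of 0.398 from limma and a 95% interval of -0.00076 to 0.68. Cysltr1 was at 16.06 and 22.2 against 20.17 and 29.96 FPKM, and Ltb4r1, the leukotriene B4 receptor, at 11.7 and 20.52 against 14.11 and 9.18 FPKM, both with overlap. Ret, the tyrosine kinase that responds to neurotrophic factors of the GDNF family through Gfra partners, was at 11.93 and 6.89 against 7.88 and 10.57 FPKM (log2 fold change 0.01, standard error 0.298). Its partners Gfra2 and Gfra3 were at 0.31 FPKM or below, and Gfra3 was listed at 0 in 3 of the 4 libraries.

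Lists of 114 further genes of the same pathways were described in the same way, and 63 of them were tested. None passed an adjusted p under 0.05 from limma. Of the 42 above 5 FPKM, 5 were lower and 8 higher by the looser limits, where 7.08% and 6.25% of all 9095 genes above 5 FPKM were. The median log2 fold change of the 63 was -0.07.

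Among 34 genes of ligand synthesis and removal, 21 were tested and 11 were above 5 FPKM. Of these 11, 2 were lower and 4 higher by the looser limits, where 7.08% and 6.25% of all 9095 genes above 5 FPKM were. Ptgs2, the inducible cyclooxygenase that starts prostanoid synthesis, was at 57.23 and 37.12 against 10.21 and 9.9 FPKM (log2 fold change -2.09, standard error 0.237, limma adjusted p = 0.0572). The enzymes that act after it differed in direction. Higher by the looser limits were Ptges and Hpgds. Ptges, which makes prostaglandin E2, was at 29.02 and 25.35 against 47.42 and 48.59 FPKM (log2 fold change 0.80, limma adjusted p = 0.119), and Hpgds, which makes prostaglandin D2, at 2.31 and 6.61 against 20.6 and 19.88 FPKM (log2 fold change 2.08, limma adjusted p = 0.129). Ptges3, another prostaglandin E2 synthase, was at 112.84 and 94.16 against 86.22 and 76.9 FPKM, and Tbxas1, which makes thromboxane, at 1.94 and 2.67 against 1.32 and 1.6 FPKM, both without overlap and past neither set of limits. Lta4h, which makes leukotriene B4, was at 116.71 and 131.93 against 226.12 and 247.65 FPKM (log2 fold change 0.93, limma adjusted p = 0.0917), while Alox5, the enzyme before it, was at 7.55 and 1.17 against 0.33 and 0.62 FPKM and passed neither set of limits. Nt5e, which makes adenosine from AMP, was at 35.45 and 45.47 against 64.68 and 54.62 FPKM (log2 fold change 0.55, limma adjusted p = 0.326).

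Calca, which encodes CGRP and calcitonin, measured 112.72 and 15.92 FPKM in Brg1-sufficient and 0.88 and 0.58 FPKM in Brg1-deficient ILC3s. The Brg1-sufficient libraries differed widely, the first being the one with the most ILC2 marker RNA, and the log2 fold change of -4.67 had a standard error of 0.859 (limma adjusted p = 0.116). Ramp1 and Calca were thus both lower in the Brg1-deficient libraries, Ramp1 with an adjusted p under 0.05 and Calca by the looser limits. Gene totals do not separate the CGRP transcript of Calca from that of calcitonin. Calcrl passed neither set of limits, and whether the falls of Calca and Ramp1 are linked was not tested. Ramp3, which turns Calcrl into an adrenomedullin receptor, was at 165.49 and 115.57 against 121.9 and 71.28 FPKM, with overlap, and Ramp2 was below the level of the test.

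**Figure D4:**
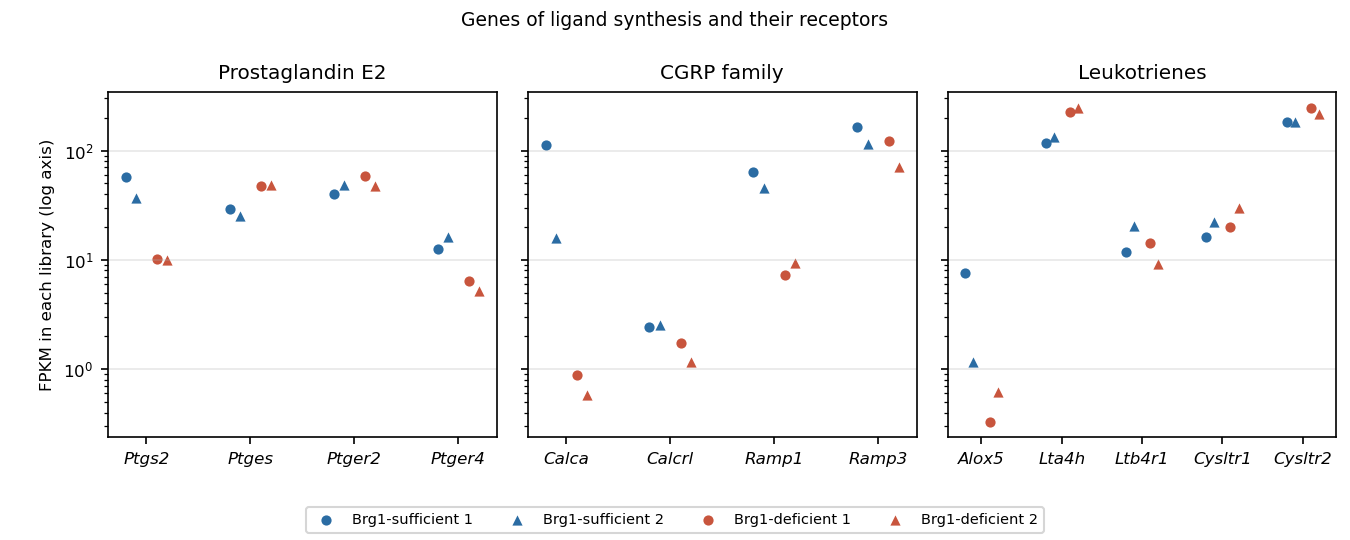
FPKM (log axis) in each library of genes for ligand synthesis and of receptors for prostaglandin E2, the CGRP family and leukotrienes, with blue for Brg1-sufficient, red for Brg1-deficient, circles for the first and triangles for the second library of a group. Ptgs2 and Ptger4 lie lower and Ptges higher in red, Calca and Ramp1 lie lower in red, and Lta4h lies higher in red while the points of Ltb4r1 and Cysltr1 overlap.

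Of 31 other receptors of these ligands, 9 were tested and 4 were above 5 FPKM. By the looser limits 2 of these 4 were higher, where 6.25% of all 9095 genes above 5 FPKM were. Both are ATP-gated channels: P2rx7 at 34.77 and 47.87 against 84.53 and 93.9 FPKM (log2 fold change 1.11, limma adjusted p = 0.11), and P2rx1 at 0.7 and 1.17 against 7.92 and 4.86 FPKM (log2 fold change 1.91, limma adjusted p = 0.104). None of the 8 G protein alpha subunits above 5 FPKM passed the looser limits, and Gnas, the Gs subunit, was at 81.74 and 95.69 against 92.76 and 84.86 FPKM. In the cyclic AMP pathway, 18 of 29 genes were tested and 14 were above 5 FPKM. Of these 14, 2 were lower and 2 higher by the looser limits, where 7.08% and 6.25% of all 9095 genes above 5 FPKM were. The phosphodiesterases Pde4b (172.49 and 141.72 against 106.31 and 76.55 FPKM) and Pde3b (10.38 and 5.89 against 3.36 and 2.04 FPKM), which degrade cyclic AMP, were lower. Pde7a, another phosphodiesterase (10.62 and 10.72 against 18.32 and 21.72 FPKM), and Prkacb, a catalytic subunit of protein kinase A (40.64 and 54.4 against 70.24 and 76.35 FPKM), were higher. Of 7 receptor kinases and arrestins, 5 were above 5 FPKM, and 1 of these was lower by the looser limits. This was Grk3, which phosphorylates active receptors, at 6.35 and 4.46 against 0.9 and 1.54 FPKM (log2 fold change -1.53, limma adjusted p = 0.132).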

How the data were processed

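Per the labels and the methods of the study, polyA RNA of sorted ILC3s was reverse transcribed, amplified in successive rounds of PCR and sequenced single-end, and biological duplicates were made of each group. The labels do not say from which mice each library came, so p-values measure the spread between these libraries. The submitters' processing notes name STAR 2.5 and RSEM 1.2 on GRCm38, and the study's methods name GENCODE M16. The authors deposited 1 FPKM value per gene and library, rounded to 2 decimals. Sorted by size, the values of the 4 libraries are almost the same, a property of quantile normalized data, so differences in total RNA are absent. Depth is unknown, and no counting interval was computed. The kit is not stated to keep strand.

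Limma 3.58.1 in R 4.3.3 (lmFit, and eBayes with a trend, two-sided) was run here on log2(FPKM + 1) of the 14739 genes whose group mean passed 1 FPKM at least once, with Benjamini-Hochberg adjustment over all of them. Adding 1 understates the change of low genes. A call is an adjusted p under 0.05, and the looser limits are those given in the report. Every receptor gene above the filter was named, with at most 4 genes per direction from each pathway list by log2 fold change. Ptges3, Tbxas1, Alox5, Ramp2, Ramp3 and Gnas, and the marker genes given with values, were named after their values were seen. The receptor genes and lists were chosen with earlier results of these data known, so no test over a list was made. Positions came from GENCODE M21 (GRCm38). The labels do not say whether libraries of the same number in both groups share hosts. The correlation of the deviations of same-numbered libraries was -0.000386 across genes. It cannot exclude pairing, since it is taken over all genes tested, and macrophage and monocyte markers were highest in the second library of each group. Alternatives were a pseudocount of 0.1, no filter, a filter at 5 FPKM, quantile normalization, no trend, the number as a block, and leaving out each library. Some items of the design and of the gene lists are not reported here.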

Additional observations from a re-analysis of the deposited data

How the results depend on the processing

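At an adjusted p under 0.05 from limma, 33 genes of the whole table were lower and 12 higher, with 1 receptor gene lower and 0 higher. Without the filter on low FPKM, and also without the trend, these counts were 0 in the whole table and among the receptor genes, where 8 and 7 receptor genes were lower and 6 and 4 higher at an unadjusted p under 0.05, beside 1400 and 965 lower and 1308 and 903 higher of the 44235 and 14739 genes tested. Over genes above 5 FPKM, 73 were lower and 41 higher in the whole table, with 1 receptor gene lower and 1 higher. With the number of the libraries as a replicate block, 248 were lower and 150 higher in the whole table, 4 receptor genes were lower (Ramp1, Gpr65, Ptger4, Cnr2) and 2 higher (Nmur1, Gpr34). Whether the numbers pair the libraries is not known. With any 1 library left out, the counts of called genes were 0 in both directions, and the lone library of a group was assumed to vary like the others. By the looser limits, 7 receptor genes were lower and 5 higher, beside 644 and 568 of 9095 genes in the whole table. Without the filter, 4 and 3 receptor genes were, beside 236 and 161 of 9095. Fewer genes passed these limits, in the whole table and among the receptor genes, when either Brg1-deficient library was left out. Of the 42 genes of the report that were followed, 7 changed direction in an alternative, all with overlapping groups: Hcar2 (0.11 at a pseudocount of 0.1) and, when libraries were left out, Ffar2 (-0.28 to 0.22), Gpr132 (-0.29 to 0.067), Gpr18 (-0.12 to 0.27), Hrh2 (-0.16 to 0.65), Gpr171 (-0.081 to 0.34) and Ret (-0.35 to 0.36). Adora2b and Ptger1 without the first Brg1-deficient library, Hcar2 and P2ry6 without the second Brg1-sufficient library, and these 4 with Gpr35 and Calcrl over genes above 5 FPKM, were under the filter and have no value there. Smarca4 stayed between -0.84 and -0.71 when libraries were left out. With FPKM alone, what depth limits in the genes near 1 FPKM could not be computed.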

Other observations

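A set of receptors known to couple to Gs, with the partner protein Ramp1, was looked at together. The grouping was chosen after their values were seen and is given without a test. It may not hold every such receptor among the 49. Of its 12 genes (Ptger2, Ptger4, Ptgir, Ptgdr, Adora2a, Adora2b, Hrh2, Vipr1, Vipr2, Calcrl, Gpr65 and Ramp1, the partner of Calcrl), 9 were tested. Of the 7 above 5 FPKM, which the looser limits require, 4 were lower (Ramp1, Ptger4, Gpr65, Vipr2) and 0 higher, where 7.08% and 6.25% of all 9095 genes above 5 FPKM were, and the median log2 fold change of the 9 was -0.68. Of the other 37 receptor genes, 20 were tested and 16 were above 5 FPKM, with 3 lower and 5 higher by these limits and a median of 0.10 over the 20. The 12 genes summed to 208.05 and 186.86 FPKM in the Brg1-sufficient and to 119.88 and 106.5 FPKM in the Brg1-deficient libraries. Ramp1 made up 64.01 and 45.64 FPKM of the former sums and 7.26 and 9.3 FPKM of the latter, and Ptger2, the most abundant of the 12 in the Brg1-deficient libraries, did not follow, at 58.27 and 47.59 FPKM there against 40.38 and 48.8 FPKM.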
